A study of Mus musculus with 12 samples.

Results

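Prostaglandins are lipid signals made from arachidonic acid, and the 10 genes described here cover their synthesis, breakdown and reception in cultured mouse bone marrow cells. They were chosen by symbol, Ptgs1, Ptgs2, Ptges, Ptges2, Ptges3, Hpgds, Tbxas1, Hpgd, Ptger2 and Ptger4, and all 10 were found among the 55487 genes of both count tables and passed the filter on low counts in both experiments. RNA-seq was measured in 12 libraries from C57BL/6 mice, all labelled as 8 weeks of age. The first experiment compared bone marrow macrophages (BMMs) from the limbs of female mice that had been ovariectomized (OVX), which removes the ovarian estrogen, with BMMs from sham-operated mice, 3 libraries each. Both groups were grown in macrophage colony-stimulating factor. The second compared mesenchymal stem cells (MSCs), the plastic-adherent cells of limb bone marrow purified by passage, cultured alone (MSC), across a porous transwell membrane from RAW264.7 cells (MSC+RAW-TW), or with those RAW264.7 cells stimulated with lipopolysaccharide (MSC+RAW-LPS-TW), 2 libraries per group. RAW264.7 is a mouse macrophage leukemia line, and lipopolysaccharide (LPS) is a bacterial cell wall component that activates macrophages. The membrane keeps the cell layers apart while soluble material passes. In the study, transfer of mitochondria from macrophages to MSCs was only partly inhibited across such a membrane. The labels do not say whether libraries of a group came from separate mice or cultures, so the p-values measure the spread between these libraries, which may be technical.

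Prostaglandin synthesis begins when phospholipases free arachidonic acid from membranes. The cyclooxygenases Ptgs1 (COX-1, usually constitutive) and Ptgs2 (COX-2, inducible by inflammatory signals) turn it into prostaglandin H2, the common precursor. Terminal synthases then decide the product: Ptges, Ptges2 and Ptges3 are prostaglandin E synthases, Hpgds makes prostaglandin D2 and Tbxas1 makes thromboxane A2. Hpgd oxidizes prostaglandin E2 and so inactivates it, and Ptger2 and Ptger4 are the prostaglandin E2 receptors that raise cyclic AMP. In bone, prostaglandin E2 is known to act on both bone-forming and bone-resorbing cells, and activated macrophages are a known source of it.

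The genes lie at separate loci of the GRCm38 genome. Ptgs2 lies on chromosome 1 (150100031 to 150108227, plus strand). Chromosome 2 carries Ptgs1 (36230426 to 36252272, plus strand), Ptges (30889471 to 30929863, minus strand) and Ptges2 (32395896 to 32405772, plus strand). Hpgds (65117293 to 65144908, minus strand) and Tbxas1 (38875404 to 39084585, plus strand) are on chromosome 6. Ptges3 lies on chromosome 10 (128058954 to 128077272, plus strand), Hpgd on chromosome 8 (56294585 to 56321043, plus strand), Ptger2 on chromosome 14 (44988195 to 45003820, plus strand) and Ptger4 on chromosome 15 (5206661 to 5244187, minus strand). Counts are over the exons of each gene. Exons of opposite-strand genes cover 15.3% of the exon length of Ptger4 (Gm15937) and at most 4.7% of that of Ptger2, Ptgs1 or Tbxas1 by any 1 such gene. The strand setting of the counting is not given in the sources used here, so such reads cannot be told apart.

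The promoters of Ptgs2 and Ptges are shown because these genes had the largest changes of the 10 in the MSC experiment. The sequences are RefSeq's on GRCm38.p6, and all 10 genes matched an entry. Each window holds the 250 bases before the RefSeq start, which for Ptges lies inside the longer gene span of the count annotation. For Ptgs2 the first 30 bases transcribed by the RefSeq annotation follow on their own line. Capitals mark matches to the motifs searched on both strands: the cyclic AMP response element half-site TGACG, the E-box CACGTG, the TATA box TATAAA and the kappa-B motif in a loose form that leaves its 3 middle bases free and takes either purine before them.
Ptgs2 upstream, chr1:150099781-150100030, plus strand: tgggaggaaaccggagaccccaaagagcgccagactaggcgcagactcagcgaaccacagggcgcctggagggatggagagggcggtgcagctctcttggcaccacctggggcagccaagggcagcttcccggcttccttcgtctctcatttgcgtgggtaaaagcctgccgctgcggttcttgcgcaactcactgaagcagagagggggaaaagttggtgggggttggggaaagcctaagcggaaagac
Ptgs2 first transcribed bases, chr1:150100031-150100060, plus strand: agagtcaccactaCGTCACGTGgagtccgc
Ptges upstream, chr2:30903298-30903547, minus strand: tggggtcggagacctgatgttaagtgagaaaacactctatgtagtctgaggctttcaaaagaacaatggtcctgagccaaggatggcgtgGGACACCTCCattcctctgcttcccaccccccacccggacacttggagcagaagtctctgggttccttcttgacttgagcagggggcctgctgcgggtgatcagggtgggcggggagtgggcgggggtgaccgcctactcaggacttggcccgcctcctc

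In Ptgs2 the half-site, read on the minus strand, and the E-box overlap just after the RefSeq start, and none of these motifs was found in the 250 bases before it. Where transcription starts in these cells was not measured. In Ptges a single kappa-B match begins 160 bases before the start. The shares were counted over longer windows, from 250 bases before to 50 after the start. In these, the half-site was found in 20.8% of 32851 promoters and in those of Ptgs2 and Ptges3, and the E-box in 7.15% and in those of Ptgs2 and Ptges2. The TATA box was found in 13.6% of promoters and in those of Tbxas1 and Hpgd. The kappa-B motif was found in 26.8%, and in those of Ptges, Hpgd and Ptges3. The promoters of Ptgs1, Hpgds, Ptger2 and Ptger4 held none of the 4 motifs. A match is a stretch of letters and was not tested as a binding site.

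Library totals ran from 17012923 to 45367105 counts. Levels are given as CPM (counts scaled to a common library total) after TMM scaling, which was done separately in each experiment, and as RPKM (the same value per kilobase of exon) where genes are compared with each other. In 2 pairs of libraries, sham replicates 2 and 3 and both MSC+RAW-TW libraries, the variation of abundant genes was 2.71 and 3.26 times that of sampling, against 18.9 to 108.5 times in the other pairs of a group. Each of these pairs was therefore summed to 1 sample in the tests and counted once in means, so sham has n = 2 and MSC+RAW-TW n = 1.

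The labelled cell types were checked against markers. The summed level of 20 macrophage markers was between 49103 and 72932 CPM in the BMM libraries and between 33036 and 33083 CPM in the libraries of MSC alone, where 16 stromal markers summed to only 4122 to 4213 CPM. In MSC, Csf1r, the receptor for macrophage colony-stimulating factor, was between 1063 and 1172 CPM and Ptprc (CD45) between 169 and 172 CPM. Of the stromal markers there, Sparc was highest at 1121 to 1169 CPM, Col1a2 was at 889 to 928 CPM, Cxcl12 at 332 to 354 CPM and Ly6a (Sca-1) at 202 to 229 CPM, while Thy1 and Lum were at 0.5 CPM or less. The libraries labelled MSC thus carried stromal and abundant macrophage transcripts, and the level of a gene cannot be assigned to stromal or macrophage cells in them. The BMM libraries carried stromal transcripts too, with sums between 10596 and 13411 CPM, above those of every group of the MSC experiment (3609 to 5738 CPM). The level of a gene cannot be assigned to macrophage or stromal cells in the BMM libraries either. In such bulk samples, fewer cells of a type and less RNA per cell cannot be told apart.

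**Figure D1:**
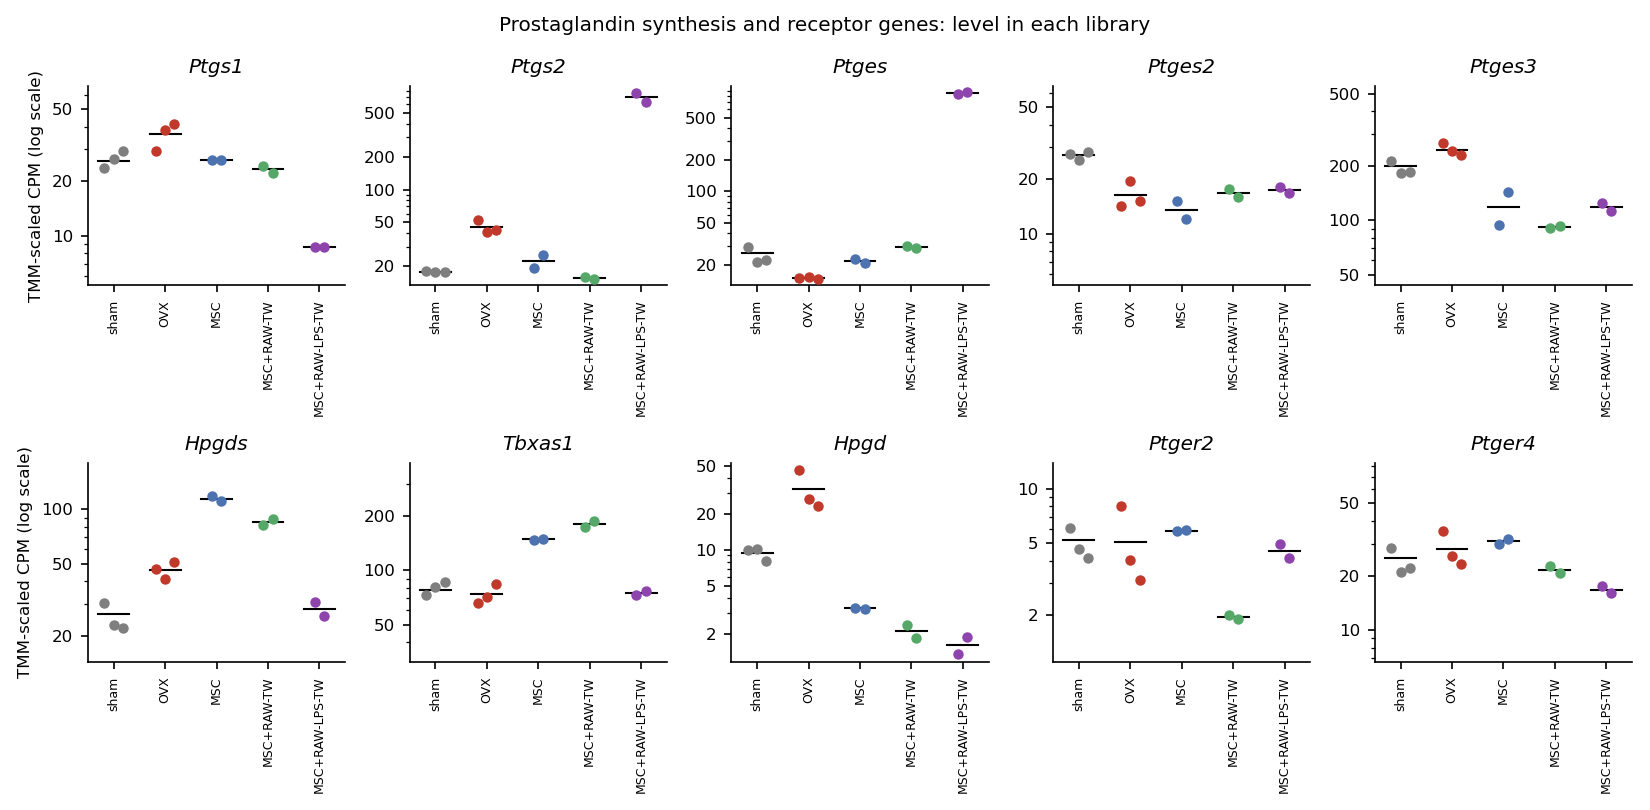
Level of each gene in every library, as TMM-scaled CPM on log axes that differ between panels; points are libraries, bars are group means with near-identical libraries counted once, and scaling was separate for the BMM groups (sham, OVX) and the MSC groups. Ptgs2 and Ptges stand at 628 to 866 CPM in both MSC+RAW-LPS-TW libraries and below 60 CPM in every other library.

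In BMMs, the question was which of these genes differed after loss of ovarian estrogen. Ptgs2 and Hpgd, the inducible cyclooxygenase and the enzyme that inactivates prostaglandin E2, were called higher in OVX than in sham, and none of the 10 was called lower. Calling a gene took a change of 2-fold or more and an adjusted p (Benjamini-Hochberg) no greater than 0.05 in edgeR's quasi-likelihood test. Over all 16768 genes tested, 5.39% were called higher and 3.08% lower. Once each library was corrected for trends with GC content and with length, both at once, neither call was kept.

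Ptgs2 was at 52.8, 41.0 and 42.6 CPM in the OVX libraries and at 18.0, 17.6 and 17.5 CPM in the sham libraries. The groups did not overlap, and the lowest OVX library was above every sham library by more than the range within either group. The log2 fold change was 1.32 (SE 0.198, adjusted p = 0.00843), from a mean of 17.8 ± 0.284 CPM (SD, n = 2) in sham to 45.4 ± 6.43 CPM (SD, n = 3) in OVX. The standard error is the size of the log2 fold change over the square root of the F statistic.

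Hpgd was at 46.4, 26.6 and 23.3 CPM in OVX and at 9.92, 10.2 and 8.04 CPM in sham. OVX replicate 1 stood well above the other OVX libraries, and all 3 were above the sham libraries. Its log2 fold change was 1.73 (SE 0.319, adjusted p = 0.0142), the largest of the 10 in this comparison. Without OVX replicate 2 it was 1.86 with an adjusted p of 0.0555.

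Of the prostaglandin E synthases, Ptges, the inducible microsomal enzyme, was at 15.0, 15.4 and 14.8 CPM in OVX and at 29.9, 21.5 and 22.4 CPM in sham. Ptges2, a membrane-associated synthase, was at 14.3, 19.5 and 15.1 CPM in OVX and at 27.6, 25.7 and 28.1 CPM in sham. Both sets of values were lower in OVX without overlap, yet both changes were below the 2-fold limit: the log2 fold change was -0.82 for Ptges (SE 0.194, adjusted p = 0.0308) and -0.78 for Ptges2 (SE 0.204, adjusted p = 0.0421). With any OVX library left out, the adjusted p was between 0.0819 and 0.13 for Ptges and between 0.0901 and 0.113 for Ptges2. The p limit was also missed by Ptges2 without sham replicate 3 (0.0509). Without sham replicate 1, which leaves 1 sham sample, the log2 fold change of Ptges was -0.62. Ptges3, the cytosolic enzyme that is also an HSP90 co-chaperone (p23), was the most abundant of the 10, at 266, 241 and 229 CPM in OVX and 214, 182 and 185 CPM in sham, and its log2 fold change of 0.27 did not pass the test (SE 0.176, adjusted p = 0.342).

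Hpgds, the prostaglandin D2 synthase, was at 46.7, 41.1 and 51.3 CPM in OVX and at 30.4, 22.9 and 22.1 CPM in sham. The groups did not overlap, and the log2 fold change of 0.78 (SE 0.201, adjusted p = 0.0408) passed the p limit but not the fold limit. With any OVX library left out its adjusted p was between 0.101 and 0.107. Tbxas1, the thromboxane synthase, was at 65.6, 70.8 and 84.1 CPM in OVX and at 72.6, 81.1 and 86.6 CPM in sham, so the groups overlapped, with a log2 fold change of -0.13 (SE 0.194, adjusted p = 0.69).

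Ptgs1, the constitutive cyclooxygenase, was at 29.3, 38.1 and 41.4 CPM in OVX and at 23.7, 26.6 and 29.3 CPM in sham. The lowest OVX library and the highest sham library were level, and the log2 fold change of 0.44 did not pass the test (SE 0.217, adjusted p = 0.209). The receptors did not separate either. Ptger4 was at 35.3, 25.7 and 23.3 CPM in OVX and 28.3, 21.04 and 22.1 CPM in sham (log2 fold change 0.14, SE 0.233, adjusted p = 0.739). Ptger2 was the least abundant of the 10 in BMMs, at 8.08, 4.03 and 3.12 CPM in OVX and 6.07, 4.65 and 4.16 CPM in sham (log2 fold change -0.07, SE 0.406, adjusted p = 0.925).

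In all, 5 of the 10 genes had an adjusted p of at most 0.05 at any fold, against 13.1% of all genes tested. The median log2 fold change of all 10 was 0.20, beside -0.01 over all genes tested. The log2 ratios taken within each number series of the library names (OVX replicate 2 with sham replicate 2, and replicates 1 and 3 of both) were 1.22 and 1.43 for Ptgs2, 1.38 and 1.96 for Hpgd and -0.21 and 0.13 for Ptger2. The series are not independent, since each holds 1 of the near-identical sham libraries.

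Genes of low GC content were higher in the OVX libraries across the whole table. Spearman's rho between the GC content of a gene's longest transcript and a library's deviation from the gene's mean was between -0.597 and -0.329 in OVX and between 0.207 and 0.508 in sham, over 15763 genes. Ptgs2 (40.0% GC), Hpgd (40.5%) and Hpgds (41.7%) have the lowest GC content of the 10, and Ptges (53.1%) and Ptges2 (54.7%) the highest. When smoothed trends on GC content and gene length were taken out of each library, the log2 fold change of Ptgs2 was 0.56 (adjusted p = 0.0755), that of Hpgd 0.98 (adjusted p = 0.0416, just under the fold limit) and that of Hpgds 0.18 (adjusted p = 0.615). Ptges was then at -0.55 (adjusted p = 0.112) and Ptges2 at -0.44 (adjusted p = 0.17). Those of Ptges3 and Ptger4 turned to -0.20 and -0.32. None of the 10 was called, and 590 of all genes were, against 1419 without the correction. Whether the trend comes from the libraries or from the animals cannot be told apart, since it follows the groups.

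**Figure D2:**
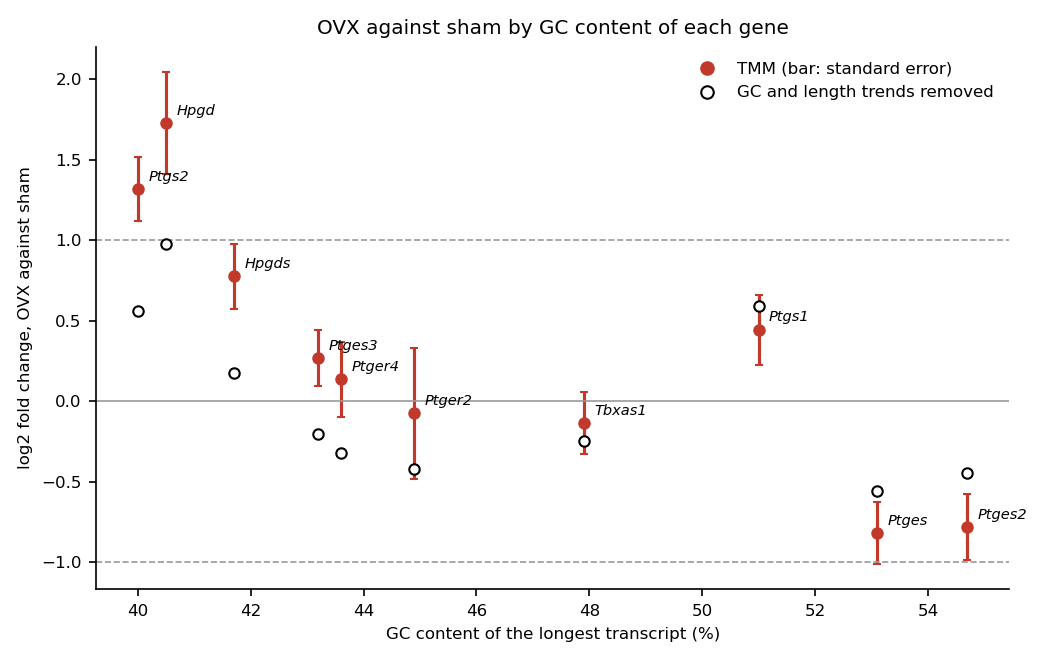
Log2 fold change of each gene in OVX against sham (vertical axis) by the GC content of its longest transcript in percent (horizontal axis); filled points are the tested values with standard errors, open points the values with GC and length trends removed, and dashed lines the 2-fold limits. The 3 genes of lowest GC content have the highest filled points, and no open point is past a dashed line.

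Macrophage markers moved with this comparison: 5 of 20 were called lower in OVX and none higher, and the sums ran from 49103 to 53821 CPM in OVX and from 64449 to 72932 CPM in sham. Of 7 osteoclast markers, 3 of the 6 tested were called lower, with sums between 289 and 298.2 CPM in OVX and between 479.6 and 596.5 CPM in sham. Neutrophil markers summed to 1216 to 1354 CPM in OVX and 823.5 to 914 CPM in sham, with none of 10 called. Megakaryocyte and platelet markers summed to 342.9 to 389.8 CPM in OVX and 136.1 to 269.8 CPM in sham, most of it Pf4, with none of 10 called, and 2 of 6 B cell markers were called lower, with sums that overlapped. Of 16 stromal markers, Postn (1.88) and Nt5e (1.46) were called higher and Ly6a (-1.11) lower, and of 2 dendritic cell markers tested, Xcr1 (-1.52) was called lower. Their part in the values above was not tested.

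In the MSC experiment, the question was how these genes differed in MSCs sharing a medium with resting or LPS-stimulated macrophages. Ptgs2 and Ptges, the inducible enzymes that act in sequence to make prostaglandin E2, were 31.7-fold and 39.3-fold above MSC in the MSC+RAW-LPS-TW libraries. Ptgs1 and Hpgds, the constitutive cyclooxygenase and the prostaglandin D2 synthase, fell 3-fold and 4.02-fold. Thus 2 of the 10 were called higher and 2 lower, against 5.85% and 5.09% of the 20499 genes tested. Removing GC and length trends left the same 4 called.

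Ptges was at 841 and 866 CPM in MSC+RAW-LPS-TW and at 22.6 and 21.1 CPM in MSC. The libraries within each group were close together and the groups far apart, with a log2 fold change of 5.30 (SE 0.177, adjusted p = 1.15e-11). It ranked number 184 from the highest among all genes tested. In MSC+RAW-TW it was at 30.4 and 29.0 CPM.

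Ptgs2 was at 769 and 628 CPM in MSC+RAW-LPS-TW and at 19.2 and 25.2 CPM in MSC, with a log2 fold change of 4.99 (SE 0.203, adjusted p = 9.23e-11) and rank 204. In MSC+RAW-TW it was at 15.8 and 15.3 CPM, below both MSC libraries. Ptgs2 is among the genes that the study itself displayed from these libraries, so its direction is not independent evidence.

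The other cyclooxygenase went the opposite way. Ptgs1 was at 8.69 and 8.63 CPM in MSC+RAW-LPS-TW, against 26.2 and 26.1 CPM in MSC and 24.2 and 22.3 CPM in MSC+RAW-TW. All 4 libraries without LPS were within a narrow range and the LPS libraries well below it, with a log2 fold change of -1.59 against MSC (SE 0.182, adjusted p = 8.92e-06).

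Hpgds was at 30.9 and 25.7 CPM in MSC+RAW-LPS-TW, at 118 and 111 CPM in MSC and at 81.4 and 87.9 CPM in MSC+RAW-TW. Both MSC+RAW-LPS-TW libraries were below all the others, and the log2 fold change against MSC was -2.01 (SE 0.16, adjusted p = 1.68e-07). MSC+RAW-TW counts as 1 sample, so its place below MSC has no replicate check. Tbxas1 was at 73.2 and 77.0 CPM in MSC+RAW-LPS-TW, at 148 and 149 CPM in MSC and at 173 and 188 CPM in MSC+RAW-TW. Its log2 fold change of -0.97 against MSC was just within the 2-fold limit (SE 0.147, adjusted p = 0.000141). Without the second MSC+RAW-LPS-TW library, which leaves 1 sample in that group, it was -1.01.

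The other prostaglandin E synthases did not follow Ptges. Ptges2 was at 18.0 and 16.7 CPM in MSC+RAW-LPS-TW and at 15.1 and 12.1 CPM in MSC (log2 fold change 0.36, SE 0.194, adjusted p = 0.23). Ptges3 was at 124 and 112 CPM against 94.0 and 143 CPM (log2 fold change 0.00, SE 0.186, adjusted p = 0.995), with the MSC libraries on either side of both LPS libraries.

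Hpgd was low throughout, at 1.35 and 1.90 CPM in MSC+RAW-LPS-TW, 3.32 and 3.21 CPM in MSC and 2.39 and 1.86 CPM in MSC+RAW-TW, which rests on 45 to 161 counts per library. Its log2 fold change of -0.99 against MSC did not pass the test (SE 0.377, adjusted p = 0.0771). Without the second MSC+RAW-LPS-TW library, which leaves 1 sample in that group, it was -1.26.

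Of the receptors, Ptger4 was at 17.5 and 15.95 CPM in MSC+RAW-LPS-TW, 30.04 and 31.7 CPM in MSC and 22.6 and 20.5 CPM in MSC+RAW-TW. Its log2 fold change of -0.87 against MSC passed the p limit only (SE 0.171, adjusted p = 0.00141). Ptger2 was at 4.96 and 4.15 CPM in MSC+RAW-LPS-TW and 5.84 and 5.91 CPM in MSC (log2 fold change -0.36, SE 0.28, adjusted p = 0.439). In MSC+RAW-TW it stood at 1.997 and 1.916 CPM, below all other MSC libraries.

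At any fold, 6 of the 10 genes had an adjusted p of at most 0.05, against 20.9% of all genes. The median log2 fold change of all 10 was -0.62, beside -0.01 over all genes tested. Scaling by library size alone, which lowered the median of all genes to -0.24, called 7 of the 10, adding Hpgd, Tbxas1 and Ptger4 as lower. Taken within each series of library numbers, 1 library against 1, the log2 ratio had the same sign for 9 of the 10 genes, and Ptges3 was at 0.41 and -0.36.

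MSC+RAW-TW counts as 1 sample, so comparisons with it have no test and no replicate check. Against it, Ptgs2, Ptges and Ptger2 were past 2-fold higher in MSC+RAW-LPS-TW (log2 fold changes 5.45, 4.81 and 1.18), and Ptgs1, Hpgds and Tbxas1 past 2-fold lower (-1.46, -1.61 and -1.29). Of all genes, 28.2% were past 2-fold higher and 19.4% lower. The median of the 10 was -0.20, beside 0.14 over all genes. MSC+RAW-TW against MSC gave 1 gene of the 10 past 2-fold, Ptger2 (-1.54), where 13.7% of all genes were past 2-fold higher and 24.0% lower. The other 9 lay between -0.56 and 0.49. These comparisons share libraries with the one above. The trend with GC content was opposite in MSC+RAW-TW (rho 0.374 and 0.378) to the other MSC libraries (-0.302 to -0.14), and with GC and length trends removed together, Ptger2 stood at 0.72 between both co-cultures, within the 2-fold limit, while Hpgd (-1.20) and Ptger4 (-1.02) were past it. In MSC+RAW-TW against MSC, the same step turned 5 of the 10 from below 0 to above it: Ptgs2 (-0.46 to 0.33), Hpgds (-0.40 to 0.31), Ptges3 (-0.33 to 0.20), Hpgd (-0.56 to 0.20) and Ptger4 (-0.47 to 0.11).

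**Figure D3:**
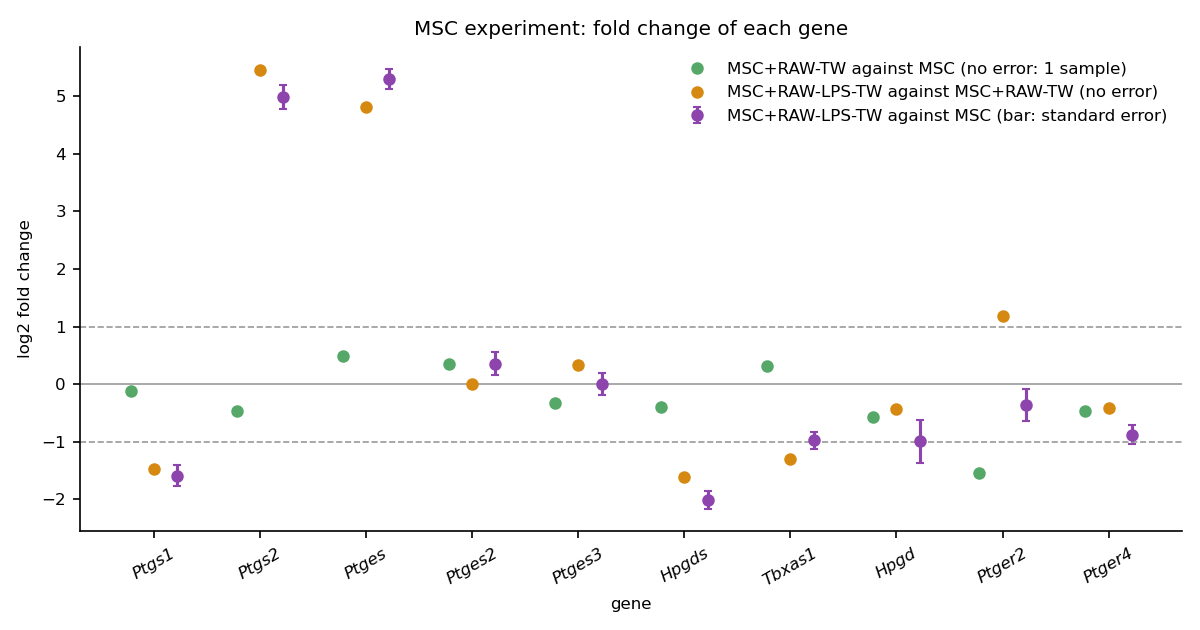
Log2 fold change of each gene (vertical axis) in 3 comparisons of the MSC experiment, with standard errors for MSC+RAW-LPS-TW against MSC only, since MSC+RAW-TW counts as 1 sample; dashed lines are the 2-fold limits. Ptgs2 and Ptges lie near 5 in both comparisons with LPS-stimulated RAW cells and within the limits in the one without.

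Markers of several cell types moved with the LPS comparison too. Of 20 macrophage markers, 7 were called lower and 1 higher in MSC+RAW-LPS-TW against MSC, and their sums were 17593 to 18461 CPM against 33036 to 33083 CPM. Of 16 stromal markers, 5 were called higher and none lower, with sums of 5703 to 5738 CPM against 4122 to 4213 CPM. Neutrophil markers summed to between 370.5 and 553.6 CPM against 11.84 to 16.56 CPM, most of it S100a8 (342 to 514 CPM). Camp rose too, being between 0.471 and 0.722 CPM in MSC and between 28.7 and 39.5 CPM in MSC+RAW-LPS-TW (log2 fold change 5.81, adjusted p = 8.01e-10). The defining markers Ltf and Retnlg were at 0 in both groups, and S100a9, Ly6g, Mpo, Elane and Cxcr2 at no more than 0.118 CPM in any of these libraries. Mast cell and basophil markers summed to 115 to 124.3 CPM against 48.62 to 54.64 CPM, with 2 called higher, Mcpt8 (1.27) and Hdc (3.42). Osteoclast markers summed to 127.1 to 150.9 CPM against 71.03 to 72.87 CPM, with Acp5 (2.25) called higher and Atp6v0d2 (-2.51) lower. Megakaryocyte and platelet markers had 1 call in each direction and erythroid markers 1 higher. Their part in the falls of Ptgs1, Hpgds and Tbxas1 or in the rises of Ptgs2 and Ptges was not tested.

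Levels per kilobase of exon put the genes in a different order in each group. In sham, Ptges3 led at 89.6 ± 9.49 RPKM (SD, n = 2), followed by Tbxas1 at 8.60 ± 0.875 RPKM, then Ptgs1 at 6.65 ± 0.775 RPKM, Ptges at 6.60 ± 1.43 RPKM and Hpgd at 5.66 ± 0.333 RPKM, and the spread of Ptges takes in Ptgs1 and Hpgd and reaches that of Tbxas1, so the place of Ptges among them is not set. In OVX, Hpgd was second at 19.1 ± 7.43 RPKM (SD, n = 3), ahead of Ptgs2 at 9.92 ± 1.40 RPKM and Ptgs1 at 9.33 ± 1.61 RPKM, which overlapped.

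In MSC, Hpgds (17.8 ± 0.722 RPKM, SD, n = 2) and Tbxas1 (16.3 ± 0.111 RPKM) stood next after Ptges3 (53.5 ± 15.7 RPKM), and Ptgs2 was at 4.85 ± 0.937 RPKM. In MSC+RAW-LPS-TW, Ptges led at 217 ± 4.43 RPKM, then Ptgs2 at 153 ± 21.8 RPKM and Ptges3 at 53.3 ± 3.98 RPKM. Tbxas1 followed at 8.26 ± 0.296 RPKM, and Ptger2 (0.878 ± 0.110 RPKM) and Hpgd (0.967 ± 0.231 RPKM) were last, within their spread of each other.

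Ratios within a library need no scaling between libraries, but they keep the trend with GC content, in which the genes of each pair differ. Per kilobase, Ptgs2 to Ptgs1 was 0.644, 0.561 and 0.508 in sham and 1.53, 0.912 and 0.873 in OVX. In MSC it was 0.619 and 0.819, in MSC+RAW-TW 0.555 and 0.584, and in MSC+RAW-LPS-TW 75.1 and 61.8. Ptgs1 was thus the more abundant cyclooxygenase in 9 of the 12 libraries, and Ptgs2 in OVX replicate 1 and both LPS libraries. With GC and length trends removed, the log2 fold changes in OVX against sham were 0.56 for Ptgs2 and 0.59 for Ptgs1, so the difference between these genes in the tested values (1.32 and 0.44) was not kept.

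Ptges to Hpgds, the synthases of prostaglandins E2 and D2, was 1.61, 1.54 and 1.66 in sham and 0.525, 0.612 and 0.472 in OVX, so Ptges was ahead in every sham library and Hpgds in every OVX library. With GC and length trends removed, Ptges was at -0.55 and Hpgds at 0.18 on the log2 scale in OVX against sham, against -0.82 and 0.78 in the tested values, and neither then passed the p limit. The ratio was 0.314 and 0.310 in MSC, 0.610 and 0.540 in MSC+RAW-TW, and 44.5 and 55.02 in MSC+RAW-LPS-TW. Ptges to Tbxas1 ran from 0.327 to 0.407 in the 4 MSC libraries without LPS and stood at 26.6 and 26.0 with it. Ptgs2 to Hpgd, the maker of the common precursor against the enzyme that inactivates prostaglandin E2, was between 0.418 and 0.802 in the BMM libraries, with the groups overlapping, between 2.12 and 3.03 in the MSC libraries without LPS, and 209 and 121 with it.

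**Figure D4:**
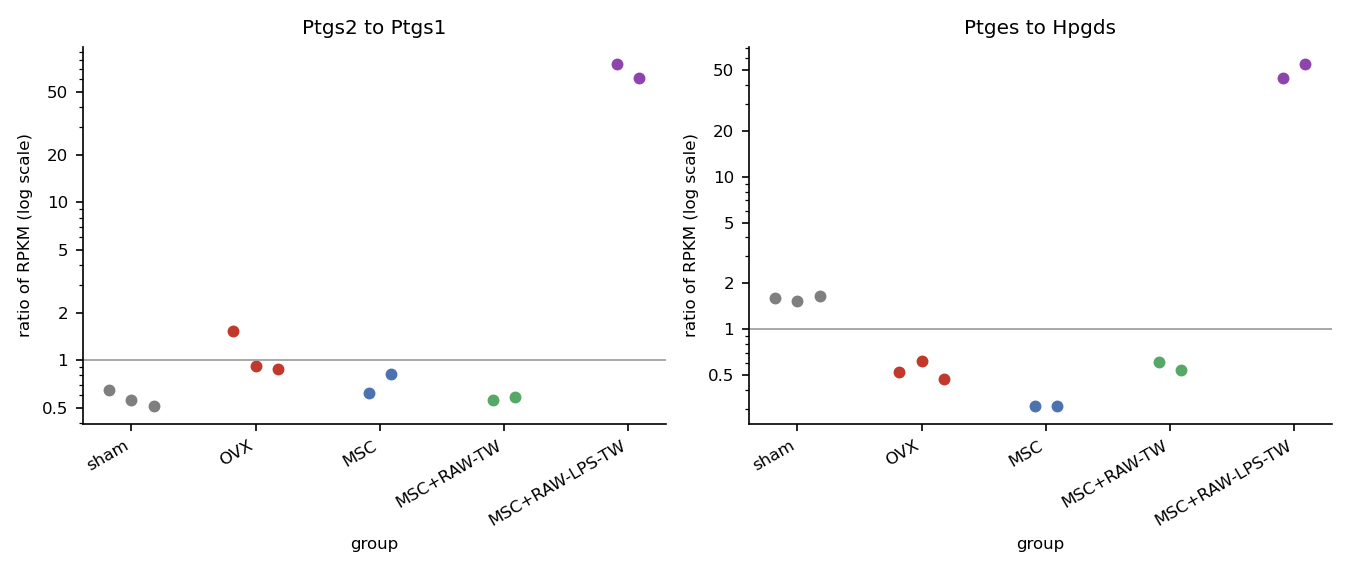
Ratio of RPKM of Ptgs2 to Ptgs1 (left) and of Ptges to Hpgds (right) in each library, on log axes, with a line at equal levels. Both ratios are above 40 in the MSC+RAW-LPS-TW libraries and below 2 in all others.

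The rest of the pathway was described by lists of genes. In the list of arachidonic acid release, 15 of 18 genes were tested in each experiment. None was called in OVX against sham (median log2 fold change -0.44), though 2 were with scaling by library size and 1 with near-identical libraries kept apart. Pla2g4a, the cytosolic phospholipase A2 that feeds the cyclooxygenases, was at 0.97 (adjusted p = 0.0544). In MSC+RAW-LPS-TW against MSC, 2 rose and 4 fell (median 0.41). Pla2g4a rose by 1.01 (adjusted p = 0.00104) and Acsl4, which activates arachidonic acid, by 1.03 (adjusted p = 0.000173). Both rises were just past the 2-fold limit, and scaling by library size alone lowered the median of all genes in this comparison to -0.24. Among the called genes, Pla2g2e, Daglb and Pla2g15 had the largest falls, at -4.26, -1.60 and -1.54, and Pla2g2e was at only 1.24 CPM in MSC.

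Of the other prostanoid synthases, 8 of 9 were tested. In OVX, 2 fell: Ptgis, the prostacyclin synthase (-1.42, adjusted p = 0.0442), and Prxl2b, a prostaglandin F synthase (-1.41, adjusted p = 0.0074), with a median of -0.63 over the list. With GC and length trends removed none was called, and with any of OVX replicates 1, 2 or 3 left out 1 was. In MSC+RAW-LPS-TW against MSC only Cbr3, a carbonyl reductase, was called (-1.56, adjusted p = 4.65e-05; median -0.10), and Ptgis averaged 0.3 and 0.304 CPM. Ptgds, the other prostaglandin D synthase, was at most 0.0611 CPM on average in any group.

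Of the other prostanoid receptors, 6 of 8 were tested in BMMs and none was called (median -0.51), though 1 was with GC and length trends removed. In the MSC experiment 5 were tested and 2 fell (median -1.38): Tbxa2r, the thromboxane receptor (-3.36, adjusted p = 0.0213), from 0.658 to 0.0601 CPM, and Pparg, a nuclear receptor that binds prostaglandin D2 metabolites (-1.54, adjusted p = 3.46e-05). Leaving out an MSC+RAW-LPS-TW library leaves 1 sample in that group, so these calls could not be checked that way. The other prostaglandin E2 receptors were scarce. Ptger1 was between 0.325 and 1.64 CPM on average over the 5 groups and Ptger3 at most 0.852 CPM, against 16.7 CPM or more for Ptger4. The prostaglandin D2 receptors Ptgdr and Ptgdr2 were at most 0.0647 CPM on average.

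Of the 6 genes of transport and breakdown found, Abcc4, an exporter of prostaglandins, was lower in OVX (-1.05, adjusted p = 0.0118; median of the list -0.21). None of the list was called without OVX replicate 2 or with scaling by library size, and 2 were without OVX replicate 3. In MSC+RAW-LPS-TW against MSC, Abcc4 rose by 1.86 (adjusted p = 3.96e-07), and Slco3a1, a carrier of the organic anion family, rose by 1.53 (adjusted p = 5.68e-06). Slco2a1, the prostaglandin uptake carrier, was at 0.58 (adjusted p = 0.0185), and the median of the list was 0.27.

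The leukotriene and lipoxygenase branch uses the same arachidonic acid. None of its 13 tested genes was called in OVX (median 0.10), and 4 of 12 fell in MSC+RAW-LPS-TW against MSC, with none higher (median -0.63). Alox5, the 5-lipoxygenase, fell by 2.68 on the log2 scale (adjusted p = 3.9e-06), its activating protein Alox5ap by 1.94 (adjusted p = 1.99e-07) and the leukotriene C4 synthase Ltc4s by 2.33 (adjusted p = 0.0455). The fourth was Mgst3 (-1.83, adjusted p = 2.24e-05). Ltc4s was scarce, at 1.7 CPM on average in MSC and 0.331 CPM in MSC+RAW-LPS-TW. The summed level of macrophage markers fell in this comparison too, and its part in these falls was not tested.

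Prostaglandin E2 acts through Ptger2 and Ptger4 on cyclic AMP, and a list of genes known to respond to cyclic AMP was read beside them. Many of these genes also answer to other stimuli. None of 13 was called in OVX (median -0.03), but 2 were with GC and length trends removed. In MSC+RAW-LPS-TW against MSC, 7 of 14 rose and none fell (median 0.88), led by Areg (6.29, adjusted p = 3.83e-06), which averaged only 0.118 CPM in MSC and 8.1 CPM in MSC+RAW-LPS-TW, Pde4b, a cyclic AMP phosphodiesterase (3.61, adjusted p = 7.65e-10), and Vegfa (2.44, adjusted p = 1.54e-08). With scaling by library size alone 4 were called.

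A set of 10 LPS-induced genes was set beside Ptgs2 and Ptges. All 10 rose in MSC+RAW-LPS-TW against MSC (median 3.8), with Nos2 at 8.88, Il6 at 8.76 and Il1b at 8.71, and 7 of them are among the genes the study displayed from these libraries, so that count is not independent evidence. In OVX 7 of the same 10 were lower (median -1.20), among them Saa3 (-3.51, adjusted p = 0.00015), Nos2 (-2.61, adjusted p = 0.0074, from only 3.86 to 0.653 CPM) and Ccl5 (-2.06, adjusted p = 0.00273). Without OVX replicate 2, 3 of them were called. Ptgs2 at 1.32 thus stood on the other side of zero from these genes in OVX and on the same side in MSC+RAW-LPS-TW. Ptges, at -0.82, was on the same side in both. By qPCR the study reported Nos2, Il1b and Tnf higher in OVX than in sham macrophages. That is opposite to their direction here (Tnf -1.19, and Il1b -0.53, which was not called).

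Ptges3 was read beside 7 other HSP90 chaperones and co-chaperones. Hsp90aa1, the inducible HSP90, was called higher both in OVX (1.52, adjusted p = 0.0212) and in MSC+RAW-LPS-TW (1.03, adjusted p = 9.78e-05), and none of the other 6 was called in either comparison. Its call in OVX was lost with GC and length trends removed or without OVX replicate 2, and its call in MSC+RAW-LPS-TW with scaling by library size. The medians of the list were -0.24 and 0.29.

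**Figure D5:**
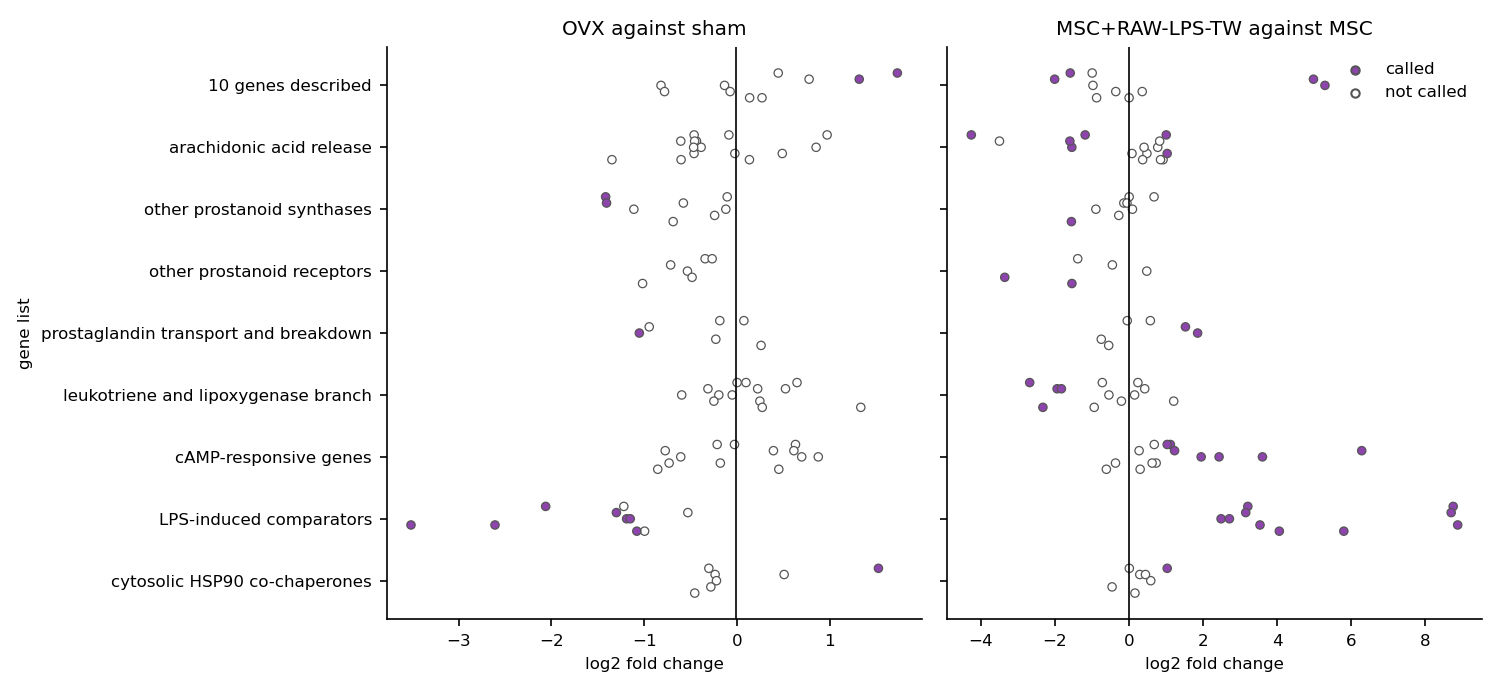
Log2 fold change of the tested genes of each list in OVX against sham (left) and MSC+RAW-LPS-TW against MSC (right); each point is a gene, filled where it was called, the vertical line is the median of all genes tested, and the vertical spread within a list only separates points. In the right panel the cAMP-responsive genes have 7 called points, all above zero, and the leukotriene branch 4, all below.

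Over all 12 libraries, the genes whose log2 CPM followed Ptgs2 most closely, among 10538 genes averaging 5 CPM or more, were Epb41l3 (Pearson's r = 0.987), Lrch1 (0.975), D16Ertd472e (0.971), Vdr (0.97) and F5 (0.966). Those most like Ptgs1 were Cxcr4 (0.983), Hacd4 (0.978), Smim11 (0.977), Eef2k (0.973) and Fbn2 (0.968). The libraries fall into separate groups, and both LPS libraries lie far from the rest for either gene. Over the 10 libraries without LPS the same r ran from 0.667 to 0.898 for the genes named for Ptgs2, and from 0.844 to 0.953 for those named for Ptgs1. These correlations are descriptions with no test, since the libraries share experiment, scaling and the trend with GC content.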

How the data were processed

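Per the labels and the methods, poly(A) RNA was made into libraries with a directional kit and sequenced as read pairs. The authors trimmed reads with Trim Galore 0.6.7, mapped them to GRCm38 with HISAT2 2.1.0 and counted them per gene with featureCounts 2.0.1, as given in the submitters' processing notes. The deposited values are raw counts, neither normalized nor filtered; strand and read-pair settings are not given in the sources used here. The genes and gene lists were chosen with earlier results of these data known. The named genes are the 10 members, genes that stand for a list, up to 3 called genes per list with the largest change, and the 5 most like Ptgs2 and Ptgs1. Names, GC content and positions came from GENCODE M21, which named 55141 of 55487 identifiers.

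Counts were tested in edgeR 4.0.16 (R 4.3.3; TMM, filterByExpr, two-sided quasi-likelihood F-test, Benjamini-Hochberg over all genes tested). All MSC libraries shared 1 fit. Log2 CPM used a prior count of 2. Alternatives were RLE, DESeq2 1.42.0, other filters, near-identical libraries apart, a block for the replicate number, leaving out each library, lowess trends on GC content and length removed (span 0.3), only the groups compared and no fold limit. Chosen after seeing the data were the library number series as a block and scaling by library size alone. The co-culture columns carry no matching replicate number, so they are named first and second. The fits were tested on simulated data. Tables used python 3.11.15, pandas 2.3.3 and matplotlib 3.10.9.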

Additional observations from a re-analysis of the deposited data

How the results depend on the processing

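Of the 10 genes, 2 were called in OVX against sham. With GC content and gene length trends removed 0 were called (edgeR, where Ptgs2 had an adjusted p of 0.0755 and Hpgd of 0.0416), with no fold limit 5, and with each library but sham replicate 1 left out in turn between 1 and 2. Without sham replicate 1 the sham group is 1 sample, so no calls were read from that fit. In MSC+RAW-LPS-TW against MSC 4 were called, 7 when scaled by library size alone, and 4 with either MSC+RAW-TW library left out. Leaving out an MSC or MSC+RAW-LPS-TW library leaves 1 sample in that group, so only fold changes were read from those fits. Without the second MSC+RAW-LPS-TW library Hpgd was at -1.26 and Tbxas1 at -1.01. Counts past 2-fold against MSC+RAW-TW, and of MSC+RAW-TW against MSC, stayed within 1.5 times of 6 and 1.

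Genes not called in a comparison changed sign in some settings; the cause was not tested. In OVX against sham, these were Ptges3 at -0.2 and Ptger4 at -0.32 with GC and length trends removed, Ptger4 at -0.0596 to 0.306 with 1 library left out (the lowest without OVX replicate 1), and Tbxas1 at 0.118 with scaling by library size. Ptger2 ran from -0.576 to 0.182 with 1 library left out, above 0 when that was OVX replicate 2 (0.0813), OVX replicate 3 or sham replicate 1 (0.145), and was at 0.183 with scaling by library size. In MSC+RAW-LPS-TW against MSC, Ptges3 was at -0.000432 with RLE, -0.000625 with DESeq2, -0.00397 without a filter, -0.273 to 0.35 with 1 library left out (below 0 without MSC replicate 1 or, at -0.0934, without the first MSC+RAW-LPS-TW library) and -0.228 with scaling by library size.

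Over all genes, 1419 were called in OVX against sham and 590 with GC and length trends removed. With 5 libraries the count ran from 309 (OVX replicate 2 left out) to 1359 (sham replicate 2 left out), 678 being the count when OVX replicate 1 was left out. Leaving out sham replicate 1 leaves 1 sham sample, so no count is given for it. Scaling by library size moved the median log2 fold change of all genes to 0.24 in OVX against sham, -0.24 in MSC+RAW-LPS-TW against MSC, -0.49 in MSC+RAW-TW against MSC and 0.26 between both co-cultures.

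OVX and sham share replicate numbers. The deviations of same-numbered libraries correlated at 0.409, -0.0261 and 0.353, and those of differently numbered libraries at -0.482 to 0.304. With sham replicates 2 and 3 near-identical, these values cannot settle whether the numbers pair the libraries. The main test did not pair them. With the replicate number as a block 2 of the 10 genes and 2117 of all genes were called, against 1818 without the block in the same 6 libraries. No paired analysis was possible because the numbers in the co-culture column names do not match the replicate numbers of the labels, as far as pairing by replicate in the MSC experiment goes. With the library number series of the column names as a block, chosen after seeing the data, 4 of the 10 genes were called in MSC+RAW-LPS-TW against MSC. Depth limits Hpgd and Ptger2 most in the MSC experiment.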
